A study of Rattus norvegicus with 6 samples.

Results

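The transporters examined here are the genes of 3 membrane transport families: the ATP-binding cassette (ABC) proteins, the organic anion transporting polypeptides (OATP, Slco genes) and the SLC22 carriers. Members were taken by symbol, as every probe set whose single gene symbol named an ABC gene of subfamilies A to G, an Slco gene or an Slc22a gene. That rule used no measured value, but the members were chosen with earlier results of these data known. The rule gave 89 of the 31042 probe sets tested, for 66 of the 14217 genes that had a single-symbol probe set. They were 50 probe sets of 37 ABC genes, 21 probe sets of 13 OATP genes and 18 probe sets of 16 SLC22 genes. A probe set is a group of short probes on the array that reads a stretch of transcript, and its value here is a log2 signal, so a difference of 1 is a doubling of signal.

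The series measured liver RNA of BBDR rats, a BioBreeding strain, on an Affymetrix rat expression array, with 2 arrays in each of 3 groups. BBDR.lyp/lyp rats carry the lymphopenia mutation (lyp) on both chromosomes and develop spontaneous autoimmune-type diabetes, and they were taken at 50 days of age, before hyperglycemia (pre-hyperglycemia), or at 55 days, shortly after its onset (post-hyperglycemia). BBDR.+/+ rats of 55 days lack the mutation and served as the normal group. In the congenic line a chromosomal region of the diabetes-prone strain came in with the mutation, so genotype here means that whole region, and the pre-hyperglycemia rats differed from the normal rats in age as well. The labels do not say which animal each array came from, so the p-values measure the spread between these arrays, and 2 arrays a group limit the precision of every value below. In whole liver, fewer cells of a type and less RNA per cell cannot be told apart.

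Hepatocytes move bile acids, drugs and sterols from blood to bile through these proteins. OATP and SLC22 carriers in the sinusoidal membrane take up bile acids, organic anions, organic cations and carnitine without using ATP directly. ABC proteins use ATP to push substrates out: into bile at the canalicular membrane, where Abcb11 exports bile salts, Abcb4 flops phosphatidylcholine and the Abcg5 and Abcg8 pair exports cholesterol, or back to blood, where Abca1 loads apolipoprotein A-I with cholesterol. Other ABC proteins work inside the cell, such as Abcd3, which carries acyl-CoA esters into the peroxisome. Subfamilies E and F hold ATPases that act in translation and transport nothing.

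The arrays were of liver: Alb, the gene of serum albumin, read 14.60 to 14.62 on all 6 arrays, and the averaged markers of kidney tubule (4.40 to 4.57) lay below the array medians (5.90 to 5.94). Averaged markers of pancreatic acinar cells read 5.30 to 5.50 and those of intestine 5.88 to 6.15, near the medians. The acinar gene Cpa1 was higher post-hyperglycemia than pre-hyperglycemia by 1.09 (limma adjusted p = 0.0063). The labels give no sex, and several members are known to differ between male and female rat liver. The female-type liver gene Cyp2c12 read 13.65 to 13.82 on all arrays, and of the Y-linked genes Eif2s3y read 2.27 to 2.62 and the brighter probe set of Uty 9.18 to 9.68. Male-type Cyp2c11 read 5.6 to 6.3 and the brightest Xist probe set 11.05 to 11.38 on all arrays. Other probe sets of the sex-related lists were called: pre-hyperglycemia against BBDR.+/+, female-type A1bg was lower by -0.59, male-type Cyp3a2 higher by 0.71 and a dimmer Xist probe set higher by 0.55, and post-hyperglycemia against BBDR.+/+ a dimmer probe set of female-type Prlr was lower by -1.52. The part of sex in the results was not tested. Of 7 Kupffer cell probe sets 4 were higher post-hyperglycemia than in BBDR.+/+, and the mean log2 signal of that marker list was 10.10 to 10.12 in BBDR.+/+, 10.39 to 10.42 pre-hyperglycemia and 10.47 to 10.55 post-hyperglycemia. The post-hyperglycemia arrays stood apart in the control probe sets placed at both ends of a transcript: the 3′ minus 5′ log2 difference of beta-actin was 2.11 and 2.04 there, against 1.36 and 1.12 in BBDR.+/+ and 1.51 and 1.32 pre-hyperglycemia, and that of GAPDH was 1.37 and 1.33, against 0.72 and 0.44 and against 0.67 and 0.55. The controls differ on exactly the arrays that define the outcome, so their part in the results below cannot be told apart from hyperglycemia. With the mean control difference of each array as a covariate, limma called no probe set, member or other, in either post-hyperglycemia comparison. The loss of the member calls in that fit is therefore not particular to the transporters.

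The called transporters were spread over uptake, canalicular export, sterol efflux, peroxisomal import and a channel subunit. Against BBDR.+/+, post-hyperglycemia liver had 3 member probe sets higher, of Abcd3, Abca1 and Abcc9, and 5 lower, of Slco1a4, Slco1b2, Slco2a1, Slco2b1 and Slc22a23 (limma, Benjamini-Hochberg adjusted p under 0.05 over all probe sets). The higher share was 3 of 89 against a background of 1.89% of all probe sets, and the lower share 5 of 89 against 3.26%. Against pre-hyperglycemia, no member was higher, where the background was 0.718%, and 5 were lower, of Slco1a4, Slco2b1, Slco2a1, Abcb4 and Abcg8, against 1.46%. At an unadjusted p under 0.05 limma placed 3 members higher in that comparison (background 7.29%), while the rank product and the t-test of the study's methods after Benjamini-Hochberg adjustment placed none. Between pre-hyperglycemia and BBDR.+/+ limma called no member, where 0.464% of all probe sets were higher and 0.254% lower. The median log2 difference of the 89 members was -0.03, -0.05 and 0.03 in the 3 comparisons in that order, beside 0.01, 0.01 and -0.003 over all probe sets. Both post-hyperglycemia comparisons use the same post-hyperglycemia arrays, so a call in both is not support from separate samples. The study's lists of lipid and steroid transport genes, which were drawn up from these arrays, hold Abcb4, Abcg8, Slco1a4 and Slco2a1, so the calls of these genes here are not independent evidence. The study gave its lipid transport list a positive activation score and printed no fold change for these genes, which were lower here.

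**Figure D1:**
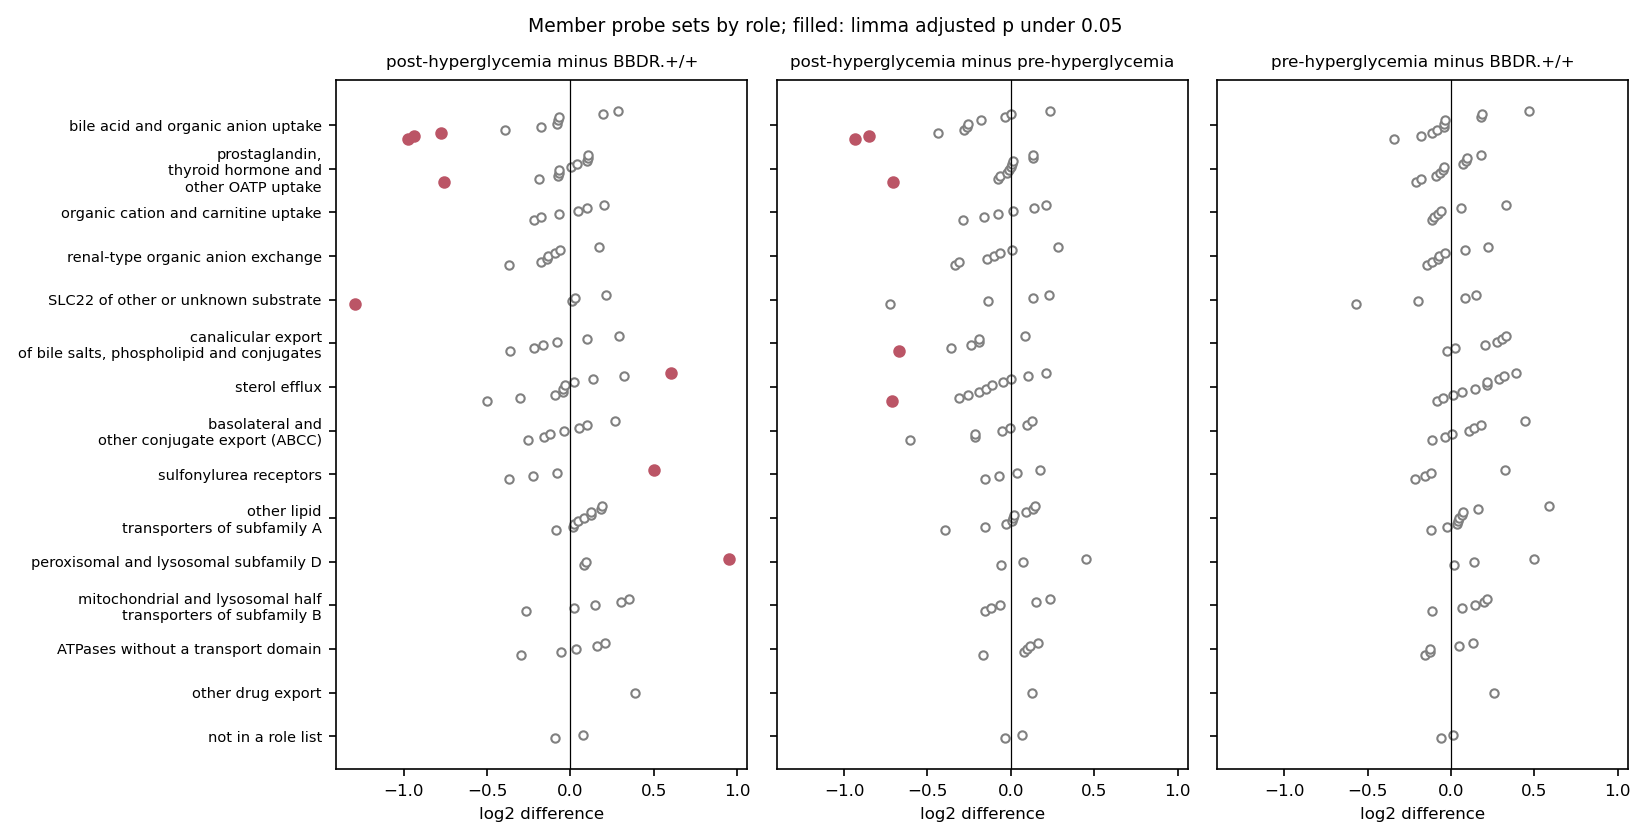
Each point is a member probe set, placed by its log2 difference (x axis) within its role (rows) for the 3 comparisons, and filled points passed limma's adjusted p of 0.05. The filled points on the left of zero are the 5 lower probe sets of the first panel and the 5 of the second, and no point is filled in the third.

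Organic anion uptake carriers gave most of the lower calls. Slco1a4, a sinusoidal OATP with a broad range of bile acid, steroid conjugate and drug substrates, has a brighter and a dimmer probe set. The dimmer read 10.68 and 10.71 in BBDR.+/+, 10.63 and 10.59 pre-hyperglycemia, and 9.77 and 9.74 post-hyperglycemia. Both post-hyperglycemia arrays lay far below the other 4, which were close together. The difference was -0.94 ± 0.10 (SE) against BBDR.+/+ (adjusted p = 0.00081) and -0.85 ± 0.10 against pre-hyperglycemia (adjusted p = 0.0033), and neither call was lost when any array was left out. The brighter probe set of the same gene did not follow. It read 12.40 and 12.27 in BBDR.+/+, 12.53 and 12.49 pre-hyperglycemia, and 12.22 and 12.28 post-hyperglycemia, so that the post-hyperglycemia and BBDR.+/+ arrays overlapped. Its difference was -0.08 ± 0.10 against BBDR.+/+ (adjusted p = 0.73) and -0.26 ± 0.10 against pre-hyperglycemia (adjusted p = 0.26).

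Slco1b2, the liver-specific OATP for bile acids and bilirubin conjugates, showed the same split between its probe sets. The dimmer read 10.44 and 10.57 in BBDR.+/+, 10.10 and 10.22 pre-hyperglycemia, and 9.62 and 9.83 post-hyperglycemia, in 3 steps that did not overlap. It was lower post-hyperglycemia than in BBDR.+/+ by -0.78 ± 0.11 (adjusted p = 0.0039), and without BBDR.+/+ replicate 2 the difference of -0.71 had an adjusted p of 0.068. The difference from pre-hyperglycemia, -0.44 ± 0.11, did not pass (adjusted p = 0.087). The brighter read 11.58 and 11.64 in BBDR.+/+, 11.60 and 11.54 pre-hyperglycemia, and 11.65 and 11.97 post-hyperglycemia, and its difference of 0.20 ± 0.12 from BBDR.+/+ had the opposite sign (adjusted p = 0.43).

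Slco2b1, an OATP of sulfated steroids and statins, was read by its dimmer probe set at 8.08 and 8.51 in BBDR.+/+, 8.02 and 8.48 pre-hyperglycemia, and 7.21 and 7.43 post-hyperglycemia. The replicates of each group were far apart, yet both post-hyperglycemia arrays lay below the other 4. The difference was -0.98 ± 0.175 against BBDR.+/+ (adjusted p = 0.01) and -0.93 ± 0.175 against pre-hyperglycemia (adjusted p = 0.023). The first call was lost without BBDR.+/+ replicate 2 (-0.76, adjusted p = 0.14) or post-hyperglycemia replicate 1 (-0.87, adjusted p = 0.068), and the second without pre-hyperglycemia replicate 2 (-0.70, adjusted p = 0.18) or post-hyperglycemia replicate 1 (-0.82, adjusted p = 0.13). The brighter probe set differed by -0.07 ± 0.11 and -0.26 ± 0.11 in these comparisons and was called in neither.

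Slco2a1, the prostaglandin carrier, had the same form. The dimmer probe set read 9.12 and 9.54 in BBDR.+/+, 9.16 and 9.42 pre-hyperglycemia, and 8.44 and 8.71 post-hyperglycemia, with both post-hyperglycemia arrays lowest. Its differences were -0.76 ± 0.16 (adjusted p = 0.02) and -0.71 ± 0.16 (adjusted p = 0.045). Against BBDR.+/+ the call was lost without BBDR.+/+ replicate 2 (-0.55, adjusted p = 0.21) or post-hyperglycemia replicate 1 (-0.62, adjusted p = 0.11). Against pre-hyperglycemia it was lost without pre-hyperglycemia replicate 2 (-0.58, adjusted p = 0.31), post-hyperglycemia replicate 1 (-0.57, adjusted p = 0.19) or post-hyperglycemia replicate 2 (-0.84, adjusted p = 0.059). The brighter probe set read between 11.59 and 11.80 on all 6 arrays, and its differences were 0.10 ± 0.10 and -0.07 ± 0.10.

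The other organic anion carriers were not called. Slco1a1, an OATP with a male-biased expression in rodent liver, has 1 probe set, which read 9.31 and 9.35 in BBDR.+/+, 9.17 and 9.27 pre-hyperglycemia, and 8.85 and 9.03 post-hyperglycemia. The post-hyperglycemia arrays were lowest, but the difference of -0.39 ± 0.11 from BBDR.+/+ did not pass (adjusted p = 0.066). Slc22a7, an organic anion and nucleotide carrier of the sinusoidal membrane, read 11.01 and 11.16 in BBDR.+/+, 11.42 and 11.68 pre-hyperglycemia, and 11.36 and 11.38 post-hyperglycemia. Its signal was lowest in the normal rats, and the pre-hyperglycemia difference of 0.46 ± 0.12 had an adjusted p of 0.13. Slco1a5 and Slco1a6 read under 4.5 on all arrays with differences within 0.18 of zero, and the remaining OATP genes (Slco1a3, Slco1c1, Slco3a1, Slco4a1, Slco5a1 and Slco6b1) had 10 probe sets, of which none was called and all post-hyperglycemia differences lay between -0.19 and 0.14. In the rat genome the genes Slco1c1, Slco1b2, Slco1a4, Slco1a1, Slco1a3, Slco1a6 and Slco1a5 stand next to each other in that order, so the called Slco1b2 and Slco1a4 are immediate neighbours.

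The SLC22 carriers held 1 called probe set. Slc22a23, a family member whose substrate is not established, was read by its dimmer probe set at 5.49 and 6.15 in BBDR.+/+, 5.16 and 5.34 pre-hyperglycemia, and 4.52 and 4.53 post-hyperglycemia. The signal was highest in the normal rats and lowest post-hyperglycemia, with no overlap between groups. It was also dim, below the array median on every array except BBDR.+/+ replicate 2. The post-hyperglycemia difference of -1.29 ± 0.18 from BBDR.+/+ (adjusted p = 0.0026) was the largest of any member and ranged from -1.62 to -0.96 as arrays were left out, always past the threshold. The brighter probe set of the gene read 9.82 and 9.76 in BBDR.+/+, 9.58 and 9.59 pre-hyperglycemia, and 9.83 and 9.80 post-hyperglycemia, which put the post-hyperglycemia and normal arrays together (0.03 ± 0.10). Slc22a5, the carnitine carrier that feeds mitochondrial fatty acid oxidation, read 8.09 and 8.14 in BBDR.+/+, 8.45 and 8.44 pre-hyperglycemia, and 8.14 and 8.18 post-hyperglycemia. Only the pre-hyperglycemia arrays stood above the rest, by 0.33 ± 0.10 over BBDR.+/+, which did not pass after adjustment (adjusted p = 0.21). Slc22a3, an organic cation carrier, read 3.20 to 3.49 on all arrays, and Slc22a8, an organic anion exchanger best known from kidney, 6.30 to 6.5 by its brighter probe set. The renal-type organic anion exchangers, with 7 probe sets, and the organic cation and carnitine carriers, with 6, had no call in any comparison.

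**Figure D2:**
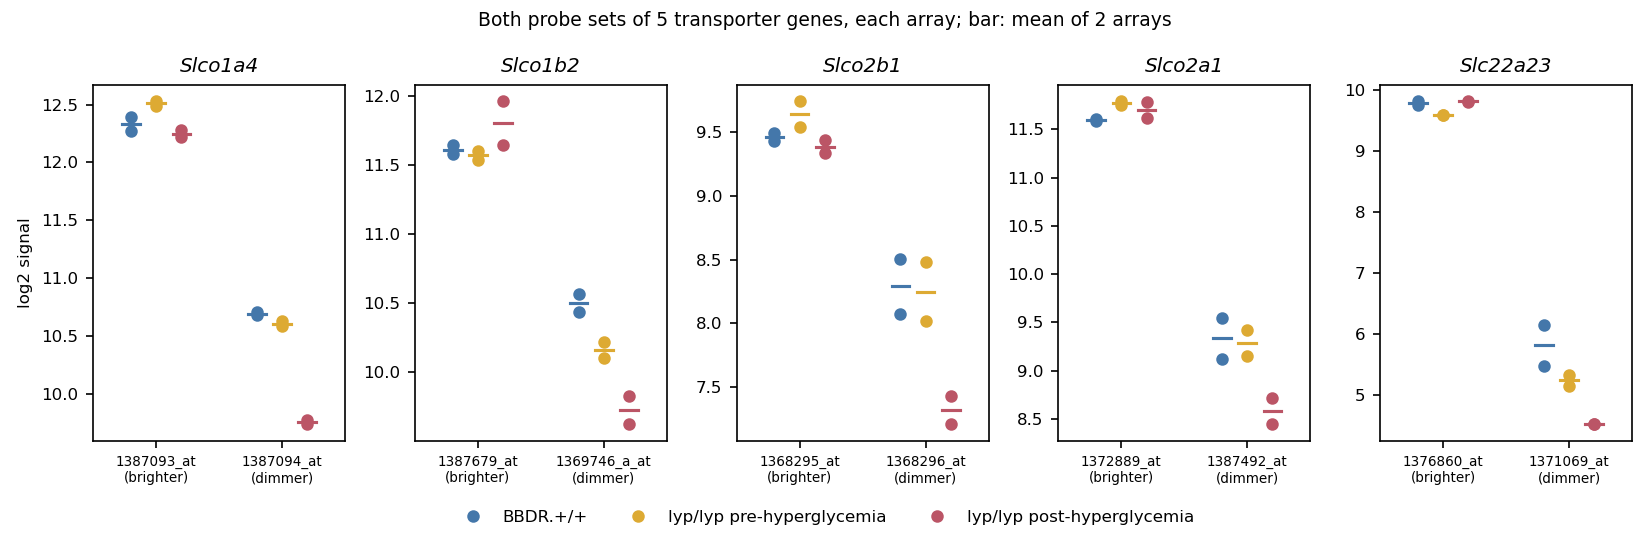
Log2 signal (y axis, a separate scale in each panel) of the brighter and the dimmer probe set of 5 transporter genes on all 6 arrays, coloured by group, with a bar at the mean of 2 arrays. In each gene the post-hyperglycemia points are lowest in the dimmer probe set, while in the brighter probe set the group means lie within 0.3 of each other.

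All 5 lower calls against BBDR.+/+ therefore came from the dimmer of 2 probe sets of a gene, and none of the 5 brighter partners was called. Over all members, taking the brightest probe set of each gene left 0 lower calls among 66 genes against BBDR.+/+, where 1.24% of all genes had one, and 4 lower at an unadjusted p under 0.05, where the background was 5.47%. Against pre-hyperglycemia it left Abcb4 and Abcg8, where the background was 0.668%. Of the 23 dimmer probe sets of members, 5 were called lower against BBDR.+/+ and 3 against pre-hyperglycemia, and among the dimmer probe sets of all genes 10.1% and 4.37% were. A split between probe sets of a gene was also found outside the transporters on these arrays.

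The same was visible as a difference within each gene, dimmer minus brightest probe set, which cancels a change shared by both. For Slco1a4 it was -1.72 and -1.56 in BBDR.+/+, -1.91 and -1.90 pre-hyperglycemia, and -2.44 and -2.54 post-hyperglycemia. For Slco1b2 it was -1.14 and -1.08, then -1.51 and -1.32, then -2.03 and -2.14 in the same order of groups. Both genes stepped down from BBDR.+/+ to pre-hyperglycemia to post-hyperglycemia. Among all 23 such pairs, in 19 genes, both post-hyperglycemia arrays lay below the other 4 in 10 pairs and above them in 1, a further probe set of Abca1, while over the pairs of all genes 28.4% lay below and 8.53% above. The 10 pairs were those of Slco1a4, Slco1b2, Slco2a1, Slco2b1, Slc22a23, Abca3, Abcb10 and Abcf3 and both dimmer probe sets of Abcc9. The median change against BBDR.+/+ was -0.51 over 8 OATP pairs and -0.31 over 13 ABC pairs. The 3′ minus 5′ differences of the actin and GAPDH controls given above also set the post-hyperglycemia arrays apart from the other 4. The part of RNA quality or labelling in the within-gene differences was not tested. With the mean control difference of each array as a covariate, limma called no probe set in either post-hyperglycemia comparison, since the covariate nearly separates the post-hyperglycemia arrays from the rest. At an unadjusted p under 0.05 that fit had 2171 probe sets against BBDR.+/+, 7 of them members, and 2186 against pre-hyperglycemia, 4 of them members. Under it Slco2b1, Slco2a1 and Slc22a23 changed sign (0.67, 0.61 and 0.36 against BBDR.+/+) while Slco1a4 stayed at -0.94 (adjusted p = 0.67).

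**Figure D3:**
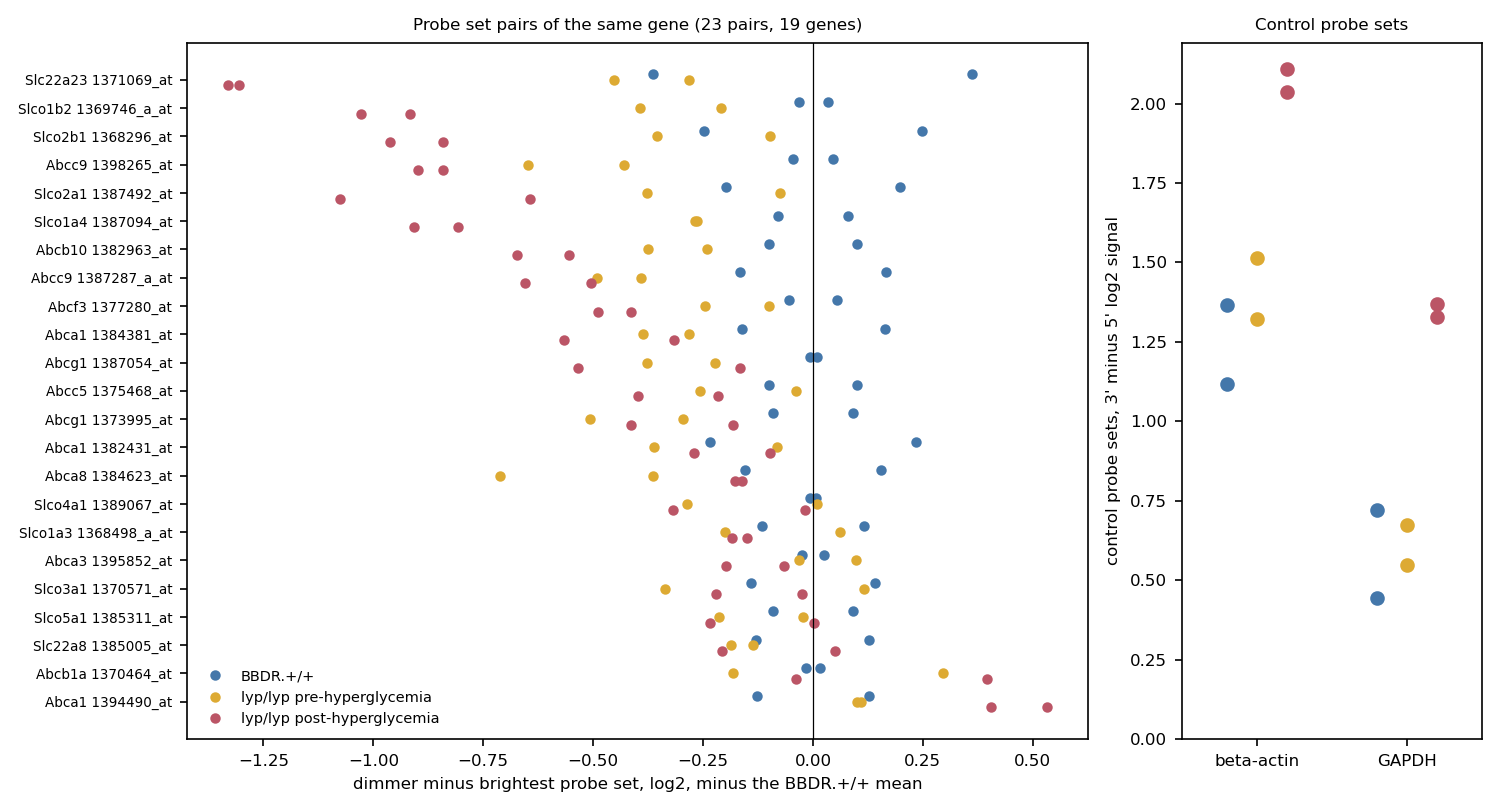
Left, log2 difference between a dimmer and the brightest probe set of the same member gene on each array, minus the BBDR.+/+ mean of that difference (x axis), for 23 pairs (rows). Right, the 3′ minus 5′ log2 difference of the beta-actin and GAPDH control probe sets on each array (y axis). Post-hyperglycemia points lie furthest left in the upper rows and highest on the right.

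Among canalicular exporters of bile salts, phospholipid and conjugates, Abcb4 was the called gene. Abcb4, the phosphatidylcholine floppase whose loss leaves bile without phospholipid, has 1 probe set, which read 9.59 and 9.51 in BBDR.+/+, 9.78 and 9.93 pre-hyperglycemia, and 9.24 and 9.14 post-hyperglycemia. The pre-hyperglycemia arrays were highest and the post-hyperglycemia arrays lowest, with no overlap. The difference was -0.67 ± 0.11 between the last 2 groups (adjusted p = 0.012), which is 0.63 times the pre-hyperglycemia signal, and -0.37 ± 0.11 against BBDR.+/+ (adjusted p = 0.081). The call was lost without pre-hyperglycemia replicate 2 (-0.60, adjusted p = 0.12) or post-hyperglycemia replicate 2 (-0.62, adjusted p = 0.051). With the control covariate, under which no probe set was called, the difference from pre-hyperglycemia was -0.69 (adjusted p = 0.73). Because the pre-hyperglycemia arrays lay above the normal ones, the size of the fall depended on which group served as the reference.

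The bile salt exporter Abcb11 read 11.88 and 11.86 in BBDR.+/+, 11.92 and 11.87 pre-hyperglycemia, and 11.72 and 11.68 post-hyperglycemia. Abcc2, which exports bilirubin and drug conjugates into bile, read 10.96 and 10.92, then 10.87 and 10.96, then 10.66 and 10.79. In both genes the post-hyperglycemia arrays were lowest by a small step that did not pass, -0.17 ± 0.10 and -0.22 ± 0.10 against BBDR.+/+ (adjusted p = 0.40 and 0.29). Abcg2, an exporter of sulfated conjugates and drugs, went the other way, with 8.83 and 8.62 in BBDR.+/+, 8.86 and 8.999 pre-hyperglycemia, and 9.01 and 9.02 post-hyperglycemia (0.29 ± 0.11, adjusted p = 0.18). Abcb1a, a P-glycoprotein that pumps lipophilic drugs, read 7.01 and 7.07, 7.23 and 7.40, and 6.89 and 7.04 by its brighter probe set, and the dimmer had a difference of 0.10 from BBDR.+/+ where the brighter had -0.08. Neither was called. The sister gene Abcb1b, which lies between Abcb4 and Abcb1a in the genome, had no member probe set and was not analysed among the members.

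Of the sterol efflux genes, Abcg8 was lower and its partner Abcg5 was not called. The 2 proteins form 1 cholesterol exporter, and their genes stand side by side. Abcg8 read 7.72 and 7.94 in BBDR.+/+, 7.92 and 8.16 pre-hyperglycemia, and 7.23 and 7.43 post-hyperglycemia, the last group lying below the others. The difference from pre-hyperglycemia was -0.71 ± 0.13 (adjusted p = 0.02), or 0.61 times the signal, and that from BBDR.+/+ -0.50 ± 0.13 (adjusted p = 0.053). The call was lost without pre-hyperglycemia replicate 2 (-0.59, adjusted p = 0.18) or post-hyperglycemia replicate 1 (-0.61, adjusted p = 0.11). Abcg5 read 8.49 and 8.76, 8.73 and 8.96, and 8.37 and 8.70 in the same order, so that its groups overlapped, and its differences were -0.31 ± 0.14 from pre-hyperglycemia (adjusted p = 0.36) and -0.10 ± 0.14 from BBDR.+/+ (adjusted p = 0.78). Whether Abcg8 and Abcg5 differed from each other was not tested. Both genes have 1 probe set, so no partner within the gene was there to compare, and with the control covariate the Abcg8 difference was 0.06.

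The promoter windows of Abcg8, Abcb4 and Abcd3 are shown because these called genes rest on 1 probe set each, and because Abcg8 shares its window with Abcg5, which was not called. The windows are those of RefSeq on build GRCr8, 250 bases before to 50 after each start, and 56 of the 66 member genes have one. The Abcg5 and Abcg8 windows overlap by 295 of 300 bases on opposite strands, with starts 206 bases apart, so 1 sequence serves both. Capitals mark the motifs searched on both strands, which were the Sp1-type GC box GGGCGG, the NF-Y element CCAAT, the TATA box motif TATAAA, and the element AGGTCA that many nuclear receptors bind. Motifs on the other strand appear as their reverse complement.
Abcg5 and Abcg8, chr6:15717686-15717985, Abcg5 strand (+): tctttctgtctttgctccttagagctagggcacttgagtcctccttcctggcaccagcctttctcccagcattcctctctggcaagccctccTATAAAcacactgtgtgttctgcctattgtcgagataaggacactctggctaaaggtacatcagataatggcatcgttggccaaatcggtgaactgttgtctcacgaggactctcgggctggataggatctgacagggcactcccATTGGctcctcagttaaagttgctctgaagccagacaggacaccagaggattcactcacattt
Abcb4, chr4:26164096-26164395, strand -: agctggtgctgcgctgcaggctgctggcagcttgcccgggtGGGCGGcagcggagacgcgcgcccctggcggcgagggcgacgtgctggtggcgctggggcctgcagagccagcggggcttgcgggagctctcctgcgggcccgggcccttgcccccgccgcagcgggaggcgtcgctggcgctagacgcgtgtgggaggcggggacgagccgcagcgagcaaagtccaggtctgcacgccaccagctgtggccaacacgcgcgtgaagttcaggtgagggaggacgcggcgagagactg
Abcd3, chr2:212590330-212590629, strand -: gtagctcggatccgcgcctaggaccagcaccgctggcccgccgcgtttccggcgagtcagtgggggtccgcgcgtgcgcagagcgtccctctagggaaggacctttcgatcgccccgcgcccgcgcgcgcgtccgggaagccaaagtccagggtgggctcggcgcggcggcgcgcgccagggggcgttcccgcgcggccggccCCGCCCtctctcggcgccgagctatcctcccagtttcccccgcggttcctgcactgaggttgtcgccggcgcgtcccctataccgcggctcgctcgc
The shared Abcg5 and Abcg8 window held TATAAA and, on the other strand, CCAAT, and was 50.3% G or C. The windows of Abcb4 and Abcd3 each held 1 GGGCGG and were 74.3% and 75.0% G or C. GGGCGG stood in 33.1% of all promoter windows, CCAAT in 37.5%, TATAAA in 14.2% and AGGTCA in 16.2%. AGGTCA was found in the windows of 10 member genes, among them Abcc2, Slco1b2 and Slc22a23, and in none of the 3 windows printed. Repeats of AGGTCA spaced by 1 or 4 bases were in no member window and in at most 0.05% of all windows.

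Abca1 and Abcg1, which move cholesterol to apolipoprotein A-I and to high-density lipoprotein, gave a call by a dim probe set. Abca1 has 4 probe sets. The brightest read 9.66 and 9.39 in BBDR.+/+, 9.83 and 9.80 pre-hyperglycemia, and 9.63 and 9.70 post-hyperglycemia, and did not differ past the threshold (0.14 ± 0.12, adjusted p = 0.58). The dimmest read 4.69 and 4.67, 5.08 and 5.07, and 5.19 and 5.39, below the array median on every array, and was higher post-hyperglycemia by 0.605 ± 0.11 (adjusted p = 0.0096). The call was lost without BBDR.+/+ replicate 1 (adjusted p = 0.059), BBDR.+/+ replicate 2 (adjusted p = 0.10) or post-hyperglycemia replicate 2 (0.51, adjusted p = 0.057). With the control covariate it was 0.63 (adjusted p = 0.80). The other 2 probe sets had differences of -0.30 and -0.05, so the 4 readings of Abca1 disagreed in sign. The brightest Abcg1 probe set read 7.53 and 7.56 in BBDR.+/+ and 7.76 to 7.95 on all 4 lyp/lyp arrays, an offset of 0.32 ± 0.11 both before and after hyperglycemia that did not pass (adjusted p = 0.29 and 0.14).

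The clearest rise belonged to Abcd3. It encodes the most abundant ABC protein of the peroxisomal membrane and carries branched-chain acyl-CoA and bile acid precursors inward for oxidation. Its 1 probe set read 8.90 and 9.02 in BBDR.+/+, 9.45 and 9.46 pre-hyperglycemia, and 9.81 and 10.002 post-hyperglycemia. The 3 groups formed 3 separate steps. Post-hyperglycemia liver was higher than BBDR.+/+ by 0.95 ± 0.11 (adjusted p = 0.0013), 1.93 times the signal, and the difference stayed between 0.85 and 1.05 and past the threshold whichever array was left out. The steps from BBDR.+/+ to pre-hyperglycemia, 0.50 ± 0.11, and from there to post-hyperglycemia, 0.45 ± 0.11, were about equal, and neither passed on its own (adjusted p = 0.083 and 0.065). With the control covariate, under which no probe set was called, the difference from BBDR.+/+ was 1.32 (adjusted p = 0.59). Abcd2, its relative for very long chain fatty acids, read 4.34 to 4.61 on all arrays, and Abcd4, a lysosomal cobalamin transporter, differed by 0.10 ± 0.10, so the rise was seen in 1 of the 3 subfamily D genes measured.

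**Figure D4:**
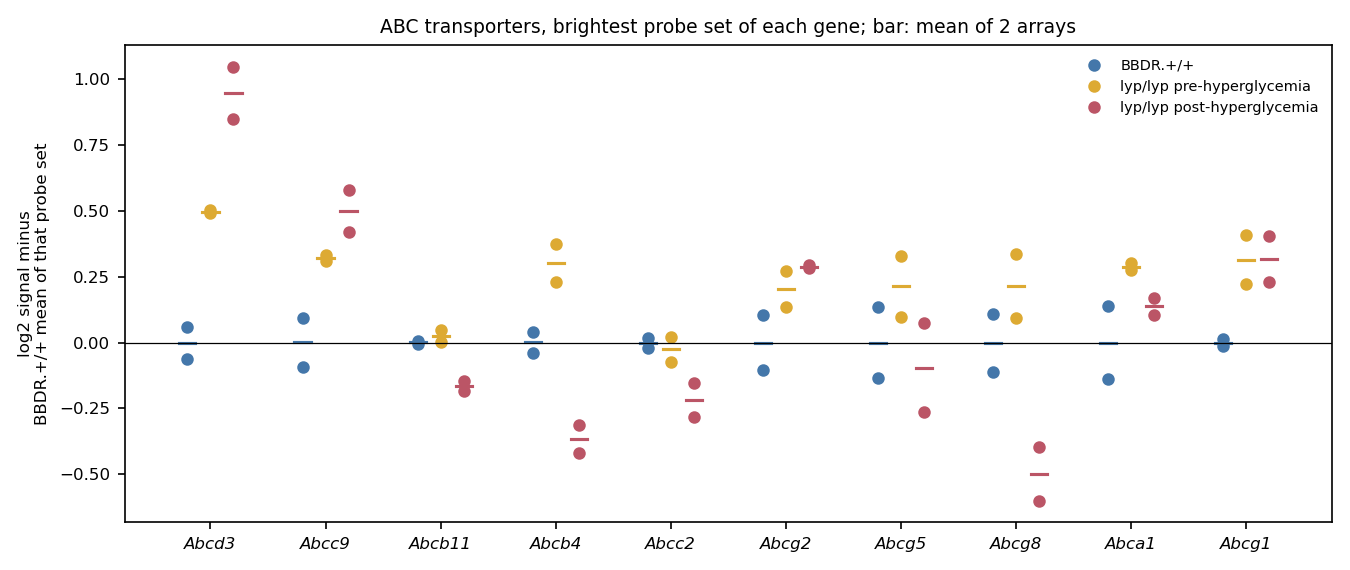
Log2 signal of 10 ABC genes by their brightest probe set on each array, minus the BBDR.+/+ mean of that probe set (y axis), coloured by group with a bar at the mean of 2 arrays. Abcd3 forms 3 rising steps, in Abcb4 the pre-hyperglycemia points are above and the post-hyperglycemia points below the normal ones, and in Abcg8 the post-hyperglycemia points are lowest.

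The sulfonylurea receptor Abcc9, a regulatory subunit of ATP-sensitive potassium channels found mainly in vascular and mesenchymal cells, was the remaining call. Its brightest probe set read 6.52 and 6.70 in BBDR.+/+, 6.94 and 6.92 pre-hyperglycemia, and 7.03 and 7.19 post-hyperglycemia, higher post-hyperglycemia than in BBDR.+/+ by 0.50 ± 0.11 (adjusted p = 0.029). The call was lost without any of the 4 arrays compared: 0.41 without BBDR.+/+ replicate 1 and 0.59 without BBDR.+/+ replicate 2, and 0.58 and 0.42 without post-hyperglycemia replicates 1 and 2 (adjusted p = 0.17, 0.093, 0.051 and 0.14). With the control covariate the difference was 0.94 (adjusted p = 0.69). The dimmer probe sets of the gene had differences of -0.37 and -0.08. The endothelial marker Pecam1 was higher in the same comparison by 0.49 (adjusted p = 0.034), the 1 call among 6 endothelial probe sets. The averaged endothelial list read 9.03 to 9.16 in BBDR.+/+, 9.36 to 9.45 pre-hyperglycemia and 9.35 to 9.42 post-hyperglycemia. The stellate cell list had a median of -0.16 against BBDR.+/+ by brightest probe sets. Its 1 call among 6 probe sets, a dimmer one of Col1a1, was higher (0.41, limma adjusted p = 0.048). The part of vascular or mesenchymal cells in the Abcc9 difference was not tested.

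Exporters of conjugates to blood and the remaining ABC genes had no call in limma on all probe sets. Abcc3, which returns conjugates to blood across the basolateral membrane, read 6.23 and 6.42 in BBDR.+/+, 6.57 and 6.96 pre-hyperglycemia, and 6.07 and 6.25 post-hyperglycemia. The pre-hyperglycemia arrays were highest, and the post-hyperglycemia difference from them, -0.60 ± 0.14, did not pass (adjusted p = 0.056). It passed among the top 60% of probe sets by signal (adjusted p = 0.037), with an intensity trend (adjusted p = 0.032), by gene means (adjusted p = 0.045), with the replicate number as a block (adjusted p = 0.011) and without pre-hyperglycemia replicate 1 (-0.79, adjusted p = 0.024). Abcc4, a conjugate and cyclic nucleotide exporter, differed by -0.04 ± 0.11 and Abcc6, a liver exporter on which ATP release depends, by 0.27 ± 0.13 from BBDR.+/+. Abca8, a lipid transporter of subfamily A, read 7.11 and 6.84, 7.67 and 7.45, and 7.13 and 7.20 by its brighter probe set, so that its pre-hyperglycemia arrays were highest, with a difference of 0.59 ± 0.12 from BBDR.+/+ that did not pass (adjusted p = 0.07). The mitochondrial and lysosomal members of subfamily B (5 probe sets), the subfamily E and F ATPases (5) and the subfamily A transporters other than Abca1 (9, Abca8 among them) had no call, and their post-hyperglycemia differences from BBDR.+/+ ran from -0.29 to 0.35.

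Before hyperglycemia the ABC genes, the export list among them, leaned upward without any call. In the pre-hyperglycemia comparison with BBDR.+/+, 12 of 89 members were higher at an unadjusted p under 0.05, where the background was 6.43%, and 2 were lower, where it was 4.95%. All but 2 of the 12 were ABC probe sets: those of Abcd3, Abca8, Abcc3, Abcb4, Abcc9, Abcg1, Abcg3l1 and Abcb1a and 2 of Abca1, together with Slc22a5 and Slc22a7. Of 21 probe sets of the export list 17 lay above zero, with a median of 0.18, against 6 of 16 and -0.04 for the uptake list. By the brightest probe set of each gene, 13 of 14 export genes lay above zero (median 0.21) and 6 of 11 uptake genes (median 0.08). Over the whole array 15238 of 31042 probe sets lay above zero, and 8008 of 14217 genes by their brightest. The Benjamini-Hochberg adjusted p of these members was 0.07 or more in limma on all probe sets, and under other settings Abcd3, Abca8 and Slc22a7 passed.

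Uptake and export were set side by side by their medians. Uptake held 16 probe sets of 11 carriers of bile acids, organic anions, prostaglandins, organic cations and carnitine. It had 4 lower calls against BBDR.+/+ and 3 against pre-hyperglycemia. Export, 21 probe sets of 14 canalicular, basolateral and sterol exporters, had 1 higher and 0 lower, then 0 and 2. Over all probe sets 1.89% were higher and 3.26% lower against BBDR.+/+, and 0.718% and 1.46% against pre-hyperglycemia. Among dimmer probe sets of all genes, 10.1% and 4.37% were lower in these comparisons. The median log2 difference against BBDR.+/+ was -0.08 for uptake and -0.04 for export, and against pre-hyperglycemia -0.22 and -0.19. The medians of the lists lay within 0.05 of each other in both comparisons, but with the control covariate they were -0.025 for uptake and 0.21 for export against BBDR.+/+, and the calls of the uptake list were all on dimmer probe sets. Sterol transport (10 probe sets) and drug transport (10 probe sets) had medians of -0.04 and 0.01 against BBDR.+/+ and -0.13 and -0.20 against pre-hyperglycemia, with 1 higher and 0 lower calls and then 0 and 1 for sterol transport, and no call for drug transport. With the covariate the sterol transport median turned to 0.22 against BBDR.+/+, and that of drug transport was 0.40 there and turned to 0.14 against pre-hyperglycemia. Pre-hyperglycemia, the medians were 0.18 and 0.16 above BBDR.+/+.

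Of the other genes of hepatic transport, the bile acid and organic ion carriers outside the 3 families (7 probe sets of 6 genes) and the peptide transporters of the ABC superfamily with other names (4 of 3) had no call. Among 9 probe sets of membrane scaffolds, 4 were lower against BBDR.+/+, 3 of Rdx, whose product radixin anchors canalicular transporters to actin, and 1 of Msn, and all were dimmer probe sets, of which 10.1% were lower over all genes, beside 3.26% of all probe sets. The sterol trafficking list had 5 lower of 17 against the same background, of Scarb1, Apoe, Osbp and Osbpl1a, and the Osbpl1a calls alone included a brightest probe set (-0.74, adjusted p = 0.0041). Msn and these 4 sterol trafficking genes are on the study's own lists from these arrays, so their calls are not independent evidence. The study printed positive fold changes for Scarb1 in both its comparisons, where the calls here were lower. The dimmer Scarb1 probe set was 0.6 times the BBDR.+/+ signal and 0.48 times the pre-hyperglycemia signal. The study's headings do not state which group each ratio was divided by, so whether the directions differ is not settled. Of 21 probe sets of regulators 4 were lower against BBDR.+/+, of Hnf4a, Nr5a2 and Ahr, again beside 3.26% of all probe sets and 10.1% of dimmer ones. All but that of Ahr were dimmer probe sets, and Hnf4a is on the study's own lists too. Nr0b2, the small heterodimer partner that bile acids induce and that represses their synthesis and uptake, read 8.78 and 8.89 in BBDR.+/+, 9.46 and 9.62 pre-hyperglycemia, and 8.83 and 9.05 post-hyperglycemia. It was higher pre-hyperglycemia than in BBDR.+/+ by 0.71 (adjusted p = 0.027) and lower post-hyperglycemia than before by -0.60 (adjusted p = 0.028), while the post-hyperglycemia and normal groups differed by 0.11 (adjusted p = 0.69). The brightest Scarb1 probe set, of the high-density lipoprotein receptor, had the same order of groups, 8.78 and 8.92, 9.26 and 9.42, and 8.88 and 8.84, with a fall of -0.48 from pre-hyperglycemia (adjusted p = 0.05).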

How the data were processed

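Rat liver RNA was hybridised to 6 Affymetrix arrays, 2 per group. The authors quantified images in Expression Console and normalized in Partek; the algorithm is not given in the sources used here, and the labels and methods name different labelling kits and feeding states. The deposited values are log2 signals per probe set, used as deposited; gene symbols came from GEO's platform annotation, and all 66 member symbols were found in RefSeq. Arrays carry no read depth. limma 3.58.1 (R 4.3.3) was fitted on all 6 arrays with 1 mean per group over 31042 probe sets, 57 control probe sets set aside, and p-values were Benjamini-Hochberg adjusted at 0.05 (3 residual and 7.704 prior degrees of freedom); the code was tested on simulated data. The methods' t-test and rank product (100 permutations) were alternatives. A gene with several probe sets was represented by its brightest, others given where they disagreed. Named were called members, textbook liver transporters and called partners. Members, lists and tests were chosen with earlier results of these data known.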

Additional observations from a re-analysis of the deposited data

Results flagged for a closer look

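The control probe sets lie outside the comparisons of transporters. Their 3′ minus 5′ log2 difference was greater post-hyperglycemia than in BBDR.+/+ by 0.8315 for beta-actin and by 0.768 for GAPDH, which is more than the spread of the arrays within any group.

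A probe set annotated to both Abcb1a and Abcb1b, and so not counted among the members, read 6.98 and 6.88 in BBDR.+/+, 6.94 and 6.99 pre-hyperglycemia, and 6.16 and 6.12 post-hyperglycemia. The post-hyperglycemia arrays lay below the rest, by -0.7928 against BBDR.+/+ (limma adjusted p = 0.0019) and by -0.8289 against pre-hyperglycemia (adjusted p = 0.004). The probe sets that read Abcb1a alone differed by -0.08 and 0.10 from BBDR.+/+. Abcb1b is on the study's own list from these arrays, which prints positive fold changes for it in both comparisons, where this probe set was lower. The list's headings do not state which group each ratio was divided by, so whether the directions differ is not settled. The part of the 3′ minus 5′ difference in the values of this probe set was not tested.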

How the results depend on the processing

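Of the counts of calls, median centring and limma on the 4 arrays of a comparison left each within 1.5 times its value, and quantile normalization did too. Against BBDR.+/+ the 3 higher and 5 lower member calls became 0 and 0 with the control covariate and with the methods' t-test after adjustment, 1 and 5 by rank product, 3 and 8 with an intensity trend, and 6 higher by the t-test unadjusted; 1 gene was lower, Abcg8, by brightest probe sets adjusted over genes. Against pre-hyperglycemia the 0 higher and 5 lower became 0 and 0 with the covariate and the adjusted t-test, 1 and 9 with a trend, 1 and 8 with the replicate block, and 5 and 8 by the t-test unadjusted. The brightest probe sets gave 2 lower, and the top 60% of probe sets and the gene means gave 1 higher, Abcd3. Pre-hyperglycemia against BBDR.+/+, the 0 higher calls became 2 (top 60%, replicate block, brightest probe sets), 3 (trend), 1 (gene means, rank product) and 5 by the t-test unadjusted, which also gave 2 lower. The covariate fit called no probe set of the array in either post-hyperglycemia comparison. Over all probe sets the adjusted t-test called 0, 0 and 1 probe sets, and 3362, 2790 and 2784 unadjusted. No source ties same-numbered arrays to each other, and with 2 numbers the pairing could not be settled: their deviations correlated at 0.26, 0.14 and 0.11 over probe sets. The replicate block added calls for Abcg8 (adjusted p = 0.013), Slco1a1 (0.041) and Abcg3l1 (0.041) against BBDR.+/+, Abcd3 (0.038), Abcc3 (0.011), Slco1b2 (0.038) and Slc22a23 (0.025) against pre-hyperglycemia, and Abcd3 (0.047) and Abca8 (0.040) before hyperglycemia. Leaving out each array gave 1 to 3 higher and 2 to 6 lower calls against BBDR.+/+ and 1 to 6 lower against pre-hyperglycemia. The covariate reversed Slco2b1 (0.67 against BBDR.+/+, 0.50 against pre-hyperglycemia), Slco2a1 (0.61 and 0.48), Slc22a23 (0.36) and Abcg8 (0.064); the cause was not tested beyond the covariate's near identity with the group.

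The medians moved as follows. With the covariate, uptake was -0.025 against BBDR.+/+ and -0.062 against pre-hyperglycemia, export 0.21 and -0.084, sterol transport 0.22 and -0.013, drug transport 0.40 and 0.14, and uptake before hyperglycemia 0.0094. By gene means uptake was -0.22, -0.18 and 0.0033 in the 3 comparisons and sterol transport -0.19 against pre-hyperglycemia. By brightest probe sets uptake was -0.16 against pre-hyperglycemia and 0.084 before hyperglycemia, and sterol transport -0.19 and 0.21. In the top 60% uptake was -0.27 and 0.022, and sterol transport before hyperglycemia 0.21. Quantile normalization gave uptake -0.19 against pre-hyperglycemia. Leaving out arrays, uptake ran from -0.14 to -0.058 against BBDR.+/+, -0.28 to -0.19 against pre-hyperglycemia and -0.053 to 0.039 before hyperglycemia, export from -0.15 to -0.0076 and, before hyperglycemia, 0.078 to 0.21, sterol transport from -0.052 to 0.033, -0.17 to -0.088 and 0.067 to 0.23, and drug transport from -0.14 to 0.065 and -0.24 to -0.036.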
